A study of Homo sapiens with 6 samples.

Results

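The machinery that brings proteins into the endoplasmic reticulum (ER), folds them and adds their N-glycans was examined in ribosome profiling data of HEK293, a line derived from human embryonic kidney. Its 36 genes were chosen by symbol, for what their products do, by a rule that uses no measured value, although earlier results of these data were known. Of these, 33 were among the 8121 genes with a translational efficiency, 34 were among the 9570 transcripts with a ribosome occupancy per codon, and 31 were in both. SEC61A2, CANX and HYOU1 had no translational efficiency, RPN2 had no occupancy, and SRPR had no occupancy and was found under its current symbol SRPRA among the efficiencies.

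The data came from 3 libraries of ribosome-protected fragments (RPF) and 3 libraries of total RNA, all from cells labelled as receiving control siRNA. The published methods for ribosome profiling name no siRNA. Before lysis, the living cells were treated with 100 ug/ml cycloheximide, which holds ribosomes on the mRNA, and the lysis buffer also held it. RPF and total RNA of a replicate were taken from the same lysate. There was no second condition, so genes are compared with each other and with all genes measured. Nothing in the labels says whether the replicates were separate cultures, so p-values measure the spread between these samples. All 5 of the filament genes chosen as markers of this line (VIM, KRT8, KRT18, NEFM and NEFL) had a translational efficiency. Their mRNA levels ran from 0.438 times that of the median transcript for KRT8 to 22.0 times for VIM. Of the markers of mature kidney, liver or blood cells, 0 of 6 were listed.

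Proteins bound for secretion or for membranes carry a hydrophobic signal that the signal recognition particle (SRP) reads as it leaves the ribosome. The SRP hands the ribosome to its receptor at the ER membrane, the nascent chain passes through the Sec61 channel, and signal peptidase removes the signal while oligosaccharyltransferase attaches a preformed glycan to asparagines. Lectin chaperones and protein disulfide isomerases then fold the chain in the ER lumen.

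Sequences are shown first for the codons that the results on occupancy turn on, since occupancy was far from even along these mRNAs. For each gene the codon of highest occupancy, leaving out the first 5 and last 5 codons, is in capitals between 4 codons on either side. Codons are counted from 1 at the start codon of the transcript in the deposited table, and positions are those of the capital codon in GRCh37, the build of hg19, from GENCODE 44. The genes are some of those whose highest codon, over the mean of its own coding sequence (CDS), exceeded the median of all transcripts. SSR2, whose highest codon lay close to the stop codon, is added. All codons lie in coding exons.
HYOU1: ccagcaggccagACTgaagatgcagag
SEC61A2: tccaacatccccATCatcctccagtcg
STT3B: aaggacattaaaTTCaaacatttggaa
P4HB: gaagacgatgatCAGaaagctgtgaaa
SRPRB: tctgctgacatcCAGgacttggagaaa
RPN1: aagaaagacacgTACattgagaatgag
SSR2: tactccagcaagAGGaaatatgacact
They are codon 948 of HYOU1 (chr11:118917172-118917174, minus strand, exon 24), codon 269 of SEC61A2 (chr10:12200000-12200002, plus strand, exon 8) and codon 753 of STT3B (chr3:31674496-31674498, plus strand, exon 15). The others are codon 501 of P4HB (chr17:79801912-79801914, minus strand, exon 11), codon 261 of SRPRB (chr3:133538575-133538577, plus strand, exon 8), codon 582 of RPN1 (chr3:128339332-128339334, minus strand, exon 10) and codon 173 of SSR2 (chr1:155979364-155979366, minus strand, exon 6). A further sequence surrounds an in-frame ATG of SPCS1, in capitals, after which that mRNA became occupied (codon 68, chr3:52740263-52740265, plus strand, exon 1).
SPCS1: cctcagccagccATGctggagcatctg

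Most of the ER machinery had a translational efficiency above that of the typical gene. Translational efficiency is the deposited ratio of RPF to total RNA, on a linear scale. No source used here states its formula. The median efficiency over the 33 genes was 0.983, against 0.385 over all 8121 genes. With limma on log2(value + 0.01) and Benjamini-Hochberg adjustment over all genes, 29 of the 33 were higher than the median of all values at a false discovery rate of 0.05 and 2 were lower (SSR2 and P4HB), while STT3A and PDIA6 did not pass. Among all genes 89.3% were called in either direction, 44.7% higher and 44.6% lower, so that a call without its direction says little here. The list reached beyond the 80th percentile of all genes with 16 members and beyond the 95th with 6. Replicates were close, with SDs of log2 efficiency whose median was 0.060 in these genes and 0.105 in all genes.

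**Figure D1:**
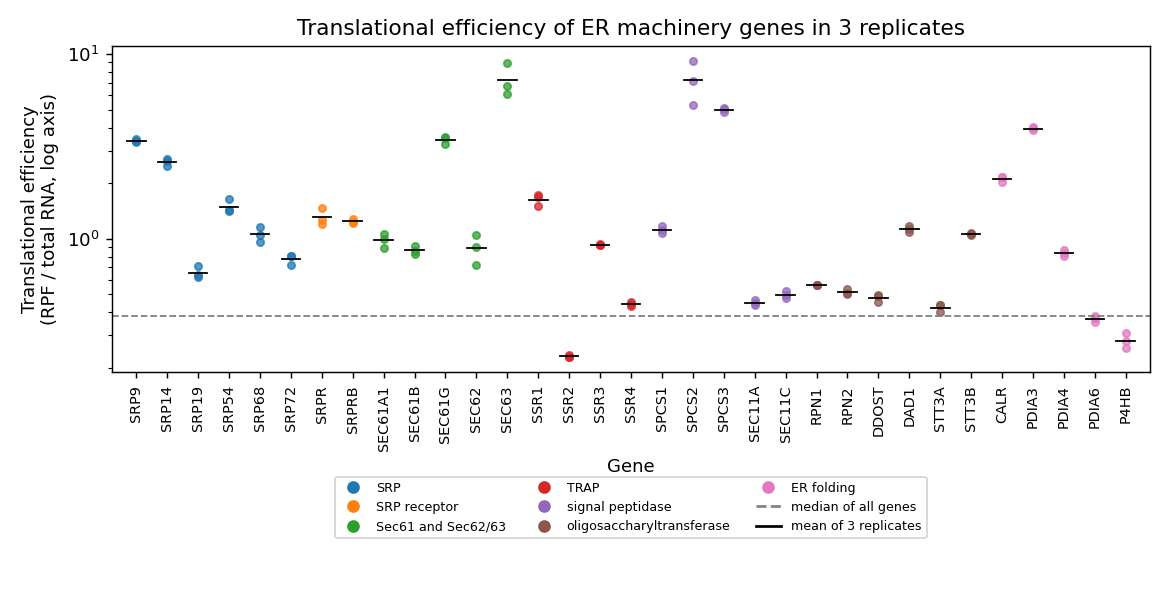
Translational efficiency (RPF over total RNA, log axis) of the 33 genes of the ER machinery with a value; each point is 1 of 3 replicates, the black line is their mean, colours are the complexes and the folding factors, and the dashed line is the median of all values, 0.383. SEC63, SPCS2 and SPCS3 sit highest, SSR2 and P4HB are below the line in all replicates. The 4 TRAP subunits lie apart from each other, while SRPR and SRPRB overlap.

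In the SRP, the ribonucleoprotein that pauses and delivers the ribosome, all 6 measured proteins were called higher. SRP9, which forms the heterodimer that slows elongation, had efficiencies of 3.47, 3.33 and 3.37 in replicates 1 to 3, and its partner SRP14 had 2.63, 2.47 and 2.70. The replicates of these genes did not overlap, and SRP9 was higher than SRP14 by 0.38 ± 0.064 on the log2 scale (SE, n = 3, limma adjusted p = 8.8e-04), in a test where 98.1% of all genes differed from SRP14. SRP68 and SRP72 also bind each other on the SRP RNA. SRP68 had 1.15, 0.965 and 1.05 and SRP72 had 0.810, 0.721 and 0.806, a difference of 0.43 ± 0.083 (SE, n = 3, limma adjusted p = 3.6e-04) where 92.4% of all genes differed from SRP72. SRP54, the GTPase that binds the signal, had a mean of 1.49 ± 0.129 (SD, n = 3) and SRP19, an assembly protein, had the lowest of the 6 at 0.657 ± 0.0516 (SD, n = 3).

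The SRP receptor is a pair of GTPases, the alpha subunit SRPR and its membrane anchor SRPRB. SRPR had efficiencies of 1.21, 1.26 and 1.48 and SRPRB had 1.22, 1.28 and 1.23, and the replicates overlapped. Their difference was 0.08 ± 0.080 on the log2 scale (SE, n = 3, limma adjusted p = 0.37), where 95.2% of all genes differed from SRPRB, and without replicate 3 it turned to -0.016.

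The channel and its partners were all called higher, from values near 0.868 to values near 7.23. SEC63, the J-domain protein that recruits the lumenal chaperone to the channel, had efficiencies of 8.92, 6.09 and 6.69. SEC61G, the small gamma subunit, had 3.50, 3.57 and 3.25. SEC61A1, which forms the pore, had a mean of 0.983 ± 0.0823, SEC62, the partner of SEC63, 0.889 ± 0.167, and SEC61B, the beta subunit, 0.868 ± 0.0456 (SD, n = 3 each). Across these 5 genes the highest mean was 8.33 times the lowest.

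The translocon-associated protein (TRAP) complex, which assists some signals at the channel, was split. SSR1, its alpha subunit, had efficiencies of 1.72, 1.496 and 1.68, and SSR3, the gamma subunit, had 0.931, 0.921 and 0.939. SSR4, the delta subunit, had 0.442, 0.452 and 0.431, close to the median of all genes, with a difference of 0.20 ± 0.049 on the log2 scale (SE, n = 3, limma adjusted p = 0.012). SSR2, the beta subunit, had 0.229, 0.236 and 0.228 and was the lowest of all members, at -0.71 ± 0.048 (SE, n = 3, limma adjusted p = 7.2e-05). No replicates of the 4 subunits overlapped, and the mean of SSR1 was 7.05 times that of SSR2.

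In signal peptidase all 5 subunits were called higher, with a 16.0-fold span between SPCS2 and SEC11A. SPCS2, an accessory subunit, had 5.27, 7.16 and 9.19 and the largest SD of all members, 1.96. Its mean of 7.21 was next to that of SEC63, 7.23, and it was lower than SEC63 in replicate 1 and higher in replicates 2 and 3. SPCS3, which the enzyme needs to work, had 4.84, 5.09 and 5.04 and SPCS1, a further accessory subunit, had 1.08, 1.17 and 1.11. The alternative catalytic subunits SEC11A and SEC11C were near the median of all genes, with means of 0.452 ± 0.0139 and 0.498 ± 0.0193 (SD, n = 3). SEC11A was lower than SEC11C in 3 of 3 replicates, but the difference of -0.14 ± 0.063 on the log2 scale did not pass (SE, n = 3, limma adjusted p = 0.080), where 90.5% of all genes differed from SEC11C.

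In oligosaccharyltransferase the catalytic subunits STT3A, which acts mostly on chains still in the channel, and STT3B, which also acts after them, differed. STT3A had efficiencies of 0.436, 0.3999 and 0.437, and STT3B had 1.06, 1.05 and 1.08. STT3A was lower by 1.31 ± 0.053 on the log2 scale (SE, n = 3, limma adjusted p = 3.8e-06), where 94.2% of all genes differed from STT3B, and was itself not called against the median of all genes (limma adjusted p = 0.054), while with a replicate block it was (limma adjusted p = 0.049). DAD1, a small subunit that both forms of the enzyme share, had a mean of 1.13 ± 0.0405 (SD, n = 3). The other shared subunits were lower, with means of 0.563 for RPN1, 0.516 for RPN2 and 0.480 for DDOST. RPN1 exceeded RPN2 in 3 of 3 replicates by 0.12 ± 0.058 on the log2 scale, which did not pass (SE, n = 3, limma adjusted p = 0.090), where 90.5% of all genes differed from RPN2.

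Among the folding factors PDIA3, the disulfide isomerase that works with the lectin chaperones, was highest at 4.01, 3.86 and 3.96. CALR, the soluble lectin chaperone, had 2.16, 2.03 and 2.16. PDIA4, another isomerase, had a mean of 0.837 ± 0.0276 (SD, n = 3). PDIA6 lay at 0.353, 0.374 and 0.383, a difference of -0.05 ± 0.052 from the median of all values on the log2 scale (SE, n = 3, limma adjusted p = 0.39). P4HB, the founding disulfide isomerase, lay at 0.280, 0.256 and 0.308 and was called lower by 0.44 ± 0.067 (SE, n = 3, limma adjusted p = 0.0020). The 4 isomerases spanned 14.0-fold. In the order of the 33 means, 18 of the 32 neighbouring pairs had replicates that overlapped. Overlap compares the ranges of the replicates and ignores their pairing, so it is no test of a difference.

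Some of these genes share sequence with other annotated genes, and reads could have been split between or added from them. The positions of those other genes were not compared. Of 35 members whose CDS could be compared, 9 shared at least 20% of their 28-base words with transcripts of other genes. The share was 100% for SRP9 (with SRP9P1), 89.4% for SPCS2 (with SPCS2P4), 80.7% for SRP19, 66.4% for PDIA3 (with PDIA3P1), 30.4% for SEC63 (with SEC63P1), 29.0% for SEC11A, 27.1% for SRP14, 24.5% for SRP72 and 20.5% for SEC61B. The values of these genes are uncertain for that reason. They include SRP9, SPCS2, PDIA3 and SEC63, which were among the 6 members beyond the 95th percentile of efficiency. Of the 23 measured members with a lower share, 19 were called higher and 2 lower, and their median efficiency was 0.930.

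Genes of the wider ER pathway were called in either direction. Of 94 measured genes of the wider list, 49 were higher than the median of all genes, 41 were lower and 4 did not pass, with a median efficiency of 0.435. These counts lie near the shares over all genes, 44.7% higher and 44.6% lower, and say nothing particular about the list. The groups within it are small and are described by their counts beside the same shares, with no test between groups. Other ER chaperones and oxidoreductases had 18 of 27 genes higher and 8 lower. ERP44, which retains thiol-bearing clients, had a mean of 10.1 ± 0.365 and HSPA5, the lumenal Hsp70 chaperone, 9.36 ± 0.734, while CRELD2 had 0.0888 ± 0.00174 and SIL1, the exchange factor of HSPA5, 0.133 ± 0.0472 (SD, n = 3 each). Genes of glycan trimming, lectins and quality control had 6 of 18 higher and 11 lower. LMAN1, a cargo lectin, had 2.79 ± 0.137 and SEL1L, a scaffold of ER-associated degradation, 0.990 ± 0.0766, against 0.0817 ± 0.00225 for EDEM2 and 0.0828 ± 0.00442 for MAN1B1, which both act in mannose trimming (SD, n = 3 each).

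Of the genes that build and transfer the lipid-linked glycan, 13 of 26 were higher and 12 lower, near the 44.7% and 44.6% of all genes. NUS1, a subunit of the enzyme that makes dolichol, had 5.80 ± 0.140 and ALG14, which acts early in building the glycan, 3.50 ± 0.108, whereas MPDU1 had 0.0557 ± 0.0116 and ALG9, a mannosyltransferase, 0.0682 ± 0.00675 (SD, n = 3 each). Other targeting and insertion genes had 8 of 16 higher and 7 lower, also near the shares of all genes. There the membrane insertase subunits EMC3 and EMC2 had 1.96 ± 0.0761 and 1.79 ± 0.0821, and UBL4A and ASNA1, which deliver tail-anchored proteins, 0.156 ± 0.0161 and 0.184 ± 0.00482 (SD, n = 3 each). Of 7 regulators of the unfolded protein response, 4 were higher and 3 lower, from MBTPS2 at 2.50 ± 0.151 and ATF6 at 2.06 ± 0.0655 to MBTPS1 at 0.1004 ± 0.0032 and ATF4 at 0.0506 ± 0.00478 (SD, n = 3 each).

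The occupancy table gave a second view, with replicates combined and so with no replicate error. Each value is the RPF count at a codon, in the reading frame, normalised for library size and divided by the abundance of the mRNA as TPM. The median of the mean CDS occupancy was 0.0758 over the 34 members and 0.0450 over 9539 transcripts. With the median over codons in place of the mean, these were 0.0274 and 0.00714, a wider gap. A median of 14.3% of codons held no footprint in the members and 43.5% in all transcripts. Because low values are whole multiples of what 1 read is worth in each replicate, the reads behind the values could be recovered, with the higher values as estimates. The members had a median of 39.9 in-frame reads per codon against 3.88 in all transcripts, and their mRNAs a median level of 5.97 times that of the median transcript. Fewer reads leave more codons empty. The share of empty codons and the wider gap in the median over codons therefore also depend on this difference in depth.

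SRP14, SRP9 and SEC61G had the densest footprints, at 245, 216 and 221 reads per codon. The other SRP proteins lay between 22.4 and 28.8 reads per codon. CALR had 140, CANX, the membrane-bound lectin chaperone, 129, PDIA3 104 and DAD1 102. HYOU1, a lumenal chaperone of the Hsp70 family, had 11.3 and SEC61A2, the second pore isoform, only 1.54, against 39.5 for SEC61A1. SEC61A2 was the sole member under the median of all transcripts.

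Footprint density and mRNA level did not vary alike within complexes. In TRAP the mRNA of SSR1 stood at 0.583 times the median transcript, SSR3 at 6.14, SSR4 at 8.75 and SSR2 at 12.3, a 21.0-fold span. Their footprint densities were 46.6 reads per codon for SSR1, 88.6 for SSR3, 44.2 for SSR4 and 40.4 for SSR2, a 2.20-fold span. Over the same 4 genes the efficiencies above spanned 7.05-fold, in the opposite order to the mRNA. Their mean CDS occupancies spanned more than the efficiencies, at 0.873 for SSR1, 0.159 for SSR3, 0.0554 for SSR4 and 0.0358 for SSR2. The mRNA level belongs to the deposited transcript of each gene, and why occupancy and efficiency differ in span was not tested. In signal peptidase the spans were 7.60-fold in mRNA and 4.23-fold in footprint density. In the SRP they were 15.4-fold in mRNA and 10.9-fold in density, and in oligosaccharyltransferase density spanned more than mRNA, 6.22-fold against 3.75-fold. Density, mRNA level and occupancy are linked by how they are made, since occupancy is density over mRNA, and mRNA level and efficiency share the total RNA libraries.

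**Figure D2:**
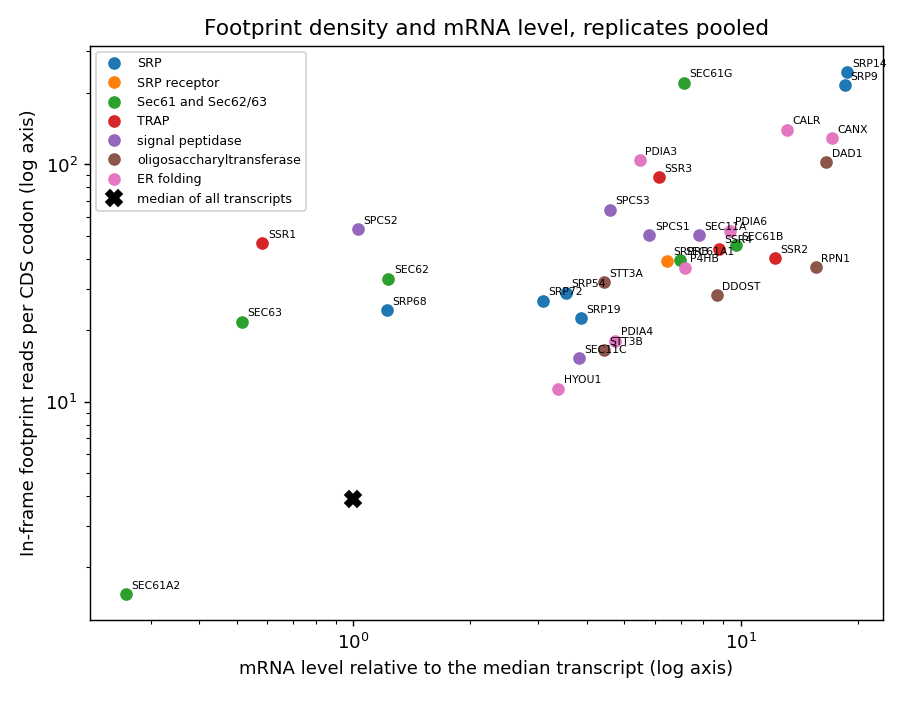
In-frame RPF reads per CDS codon against mRNA level relative to the median transcript, log axes, replicates combined; each point is 1 of 34 members coloured by complex or as folding factors, and the cross is the median of all transcripts at 3.88 reads per codon. All members but SEC61A2 lie above the cross, and the 4 TRAP subunits span 2.20-fold in density while running from SSR1 at 0.583 to SSR2 at 12.3 on the mRNA axis.

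Across the 31 genes with both values, translational efficiency and CDS occupancy had a Spearman coefficient of 0.72, and over 6884 genes 0.69. The tables come from the same libraries, so this describes their relation and is no independent check. Efficiency and CDS length had a coefficient of -0.14 over the 31 members and -0.26 over the 6884 genes. For efficiency and mRNA level it was -0.23 over the 31 members and 0.14 over 6873 genes.

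Along the CDS, occupancy differed in level between the ends of individual mRNAs. In 27 members of at least 150 codons the median ratio of the mean over the first 75 codons to that over the last 75 was 1.15, against 0.989 for 8778 transcripts. It ranged from 0.0173 for SPCS1 and 0.0740 for STT3B to 3.85 for SEC61A2. The value of SEC61A2 rests on few reads, 1.54 per codon, with 58.0% of its codons empty. The ratio moved to 0.961 without the highest codon of each CDS and to 0.938 with medians over codons, so that its side of 1 rests on single codons. In bins of 15 codons, each transcript divided by its own CDS mean, codons 31 to 45 had a median of 1.26 in the members and 0.757 in all 8816 transcripts, and 17 of 27 members exceeded their own mean there against 40.3% of all transcripts. Codons 1 to 15 had a median of 0.378 in the members and 0.469 in all. The last 15 codons had a mean of 1.47 in the members and 0.982 in all, with medians of 0.920 and 0.704. These bins were not tested.

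**Figure D3:**
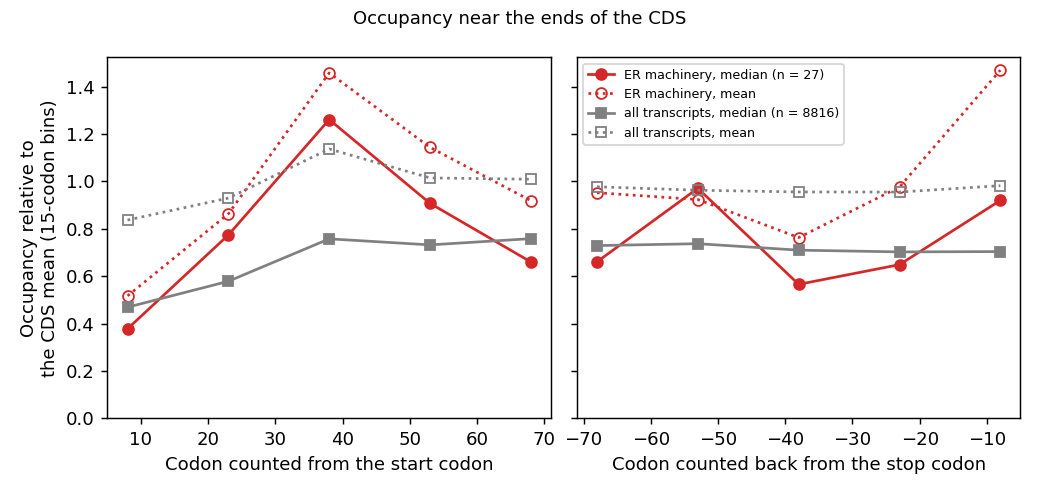
Occupancy relative to the mean of the own CDS in 15-codon bins, counted from the start codon (left) and back from the stop codon (right), for 27 members (red) and 8816 transcripts (grey); filled symbols are medians and open symbols means, with no error because replicates were combined. By the median the members were highest at codons 31 to 45, at 1.26 against 0.757. By the mean their last 15 codons were highest, at 1.47 against 1.46 at codons 31 to 45. All transcripts also had their highest mean at codons 31 to 45, 1.14.

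SPCS1 was occupied over only part of the deposited CDS. Of its 170 codons, codons 1 to 67 held 0.647% of the occupancy, about 55 reads or 0.827 per codon. Codons 68 to 170, from the ATG printed above, held 99.4%, about 8519 reads or 82.7 per codon. That ATG begins a stretch of 103 codons, the length of another annotated SPCS1 isoform. SPCS1 reached 5% of its summed occupancy at 44.7% of the CDS length, the 99.4th percentile of all transcripts, where the median was 7.33%. By the ratio of the first to the last 75 codons, STT3B came next to SPCS1 at the low end. Its last 75 codons had a mean occupancy of 0.0654 and its first 75 had 0.00484. GENCODE listed no other complete CDS length for it.

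Occupancy before the start codon was low in most members, with an in-frame 5′UTR level at a median of 0.613% of the CDS level against 2.86% in all transcripts. STT3A was the exception at 85.7%, with about 2730 reads over 100 codons. Of that 5′UTR occupancy, 97.6% lay in the 62 codons next to the start codon, which are coding in the same frame in another annotated isoform. The deposited CDS has 614 codons, and the longest annotated CDS of the gene has 706. SSR3 stood at 19.1%, all of it in the 7 codons before the start, which are also coding in another isoform. SSR1 stood at 11.0%, about 312 reads, of which 94.5% lay in the 11 codons before the start, and none of the 26 codons before the start that could be compared were coding in another isoform. The window of 11 codons was chosen after the values were seen.

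**Figure D4:**
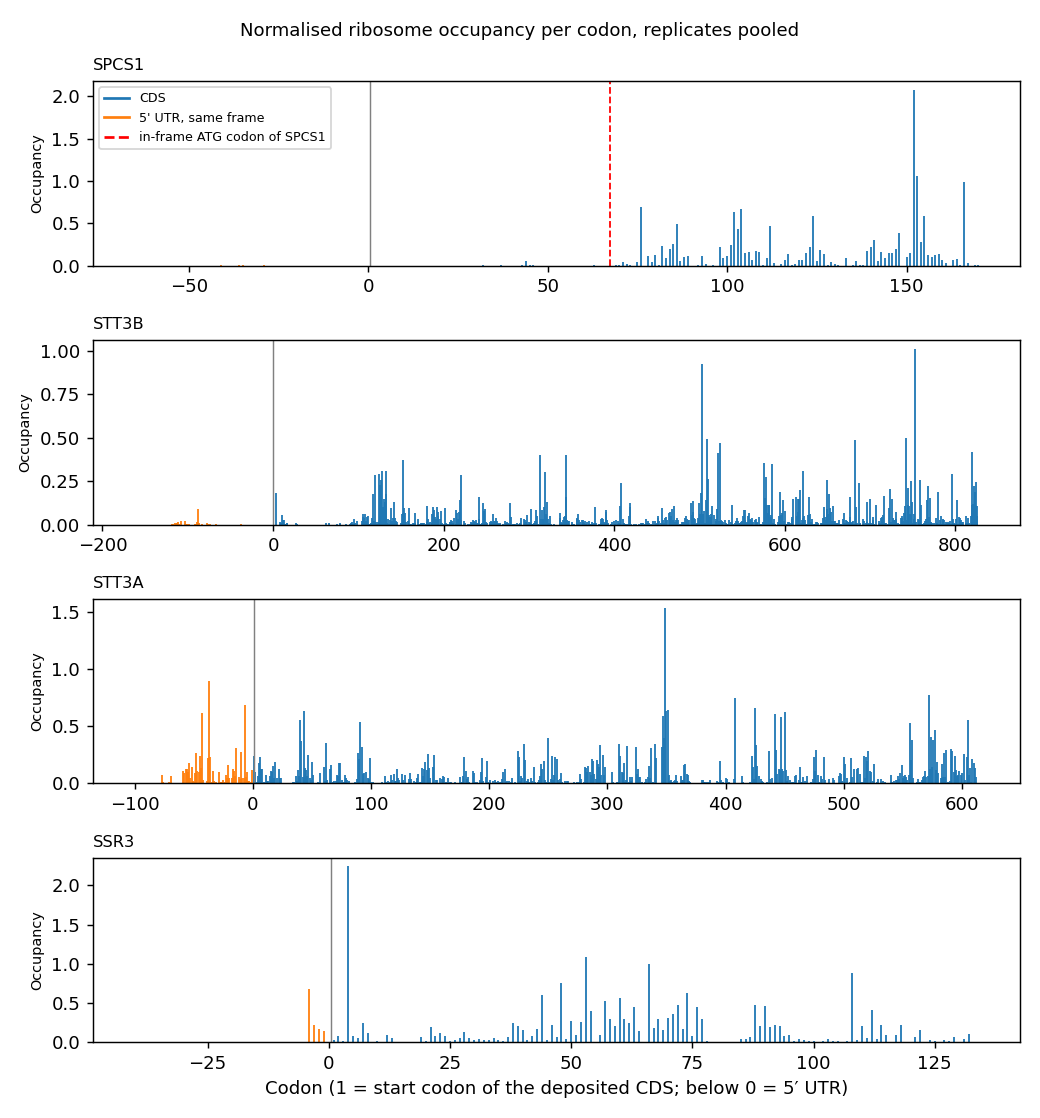
Normalised ribosome occupancy (RPF per library size and mRNA abundance) at each codon of SPCS1, STT3B, STT3A and SSR3, with the CDS in blue, the 5′UTR in the same frame in orange and the grey line at the start codon, replicates combined. SPCS1 is nearly empty up to the dashed red line at codon 68, STT3B is low over its first 75 codons, and the 5′UTRs of STT3A and SSR3 hold 85.7% and 19.1% of the CDS level.

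The highest codon stood a median of 15.8 times above the mean of its CDS in the members and 20.6 times in all transcripts. This ratio can also depend on depth, which was a median of 39.9 reads per codon in the members and 3.88 in all transcripts. How far it does was not tested. The codons printed above stood at 33.03 times the mean in HYOU1, 32.6 in SEC61A2, 24.9 in STT3B, 23.04 in P4HB, 22.99 in SRPRB, 22.9 in RPN1 and 15.2 in SSR2. Those of P4HB, SRPRB and RPN1 were near the middle of all transcripts, at percentiles 59.0, 58.9 and 58.6. SRP54 reached 28.4, but its CDS was not matched to an annotated transcript. PDIA4 reached 25.4, above STT3B, and is not among the genes printed. Reads were fewer than in the median member in HYOU1, STT3B, PDIA4 and SRP54, at 11.3, 16.4, 18.1 and 28.8 per codon. The value of SEC61A2 rests on about 702 reads in the whole CDS. SSR3 had the lowest such value, 6.88, and SRP9 followed at 8.05, but in SSR3 codon 4, among the codons left out at the start, was higher still, with an occupancy of 2.24 against 1.09 at its highest inner codon. The codon lay within 15 codons of the stop codon in 3 of 34 members (P4HB, SRPRB and SSR2), 8.82%, and in 3.59% of all transcripts, a difference of few genes that was not tested. The 33 codons that could be read were of 23 kinds, with AAC and CAG in 3 members each and no other codon in more than 2.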

How the data were processed

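RPF and total RNA libraries of HEK293 cells, 3 each, were compared by replicate number. The authors removed adapters and PCR duplicates, aligned RPFs to the hg19 transcriptome and kept the most abundant transcript per gene. The submitters' processing notes name cutadapt 1.16, Bowtie 1.1.2, TopHat2 2.1.1 and HTSeq 0.9.1, while the methods name Hisat2 for total RNA. The deposited efficiencies are a linear ratio of RPF to total RNA per replicate. The deposited occupancies (another unit, signal per codon) are in-frame RPF counts per library size over TPM, with replicates pooled by the authors. Library totals were not used here. The members and gene lists were chosen with earlier results of these data known.

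Efficiency was tested with limma 3.58.1 (R 4.3.3) on log2(value + 0.01) minus the median of all values, or minus the partner gene of the same replicate, at an FDR of 0.05 without a filter. Of the 9570 transcripts, 31 with a CDS list broken over lines were left out, none of them a member. Reads were recovered for 9523 of 9539 (99.8%) from whole multiples (tolerance 1e-09) of 3 steps up to 60 times the smallest. Higher values were estimated, a median of 78.4% of the reads of a member. The steps also gave the mRNA level, as the inverse of their mean. Both procedures were tested on simulated data. Named genes were all members and, in each role of the wider list, the 2 highest and 2 lowest called. SRPR was matched through RefSeq synonyms. Of 34 members with occupancy, 33 matched a GENCODE 44 transcript by symbol and CDS length (Python 3.11.15, pandas 2.3.3). Alternatives were leaving out each replicate, a replicate block, pseudocounts of 0.1 and 0.001, a minimum of 0.05, the mean as reference and other summaries over codons. Highest codons are printed for 7 members, and those of the others are not reported here.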

Additional observations from a re-analysis of the deposited data

How the results depend on the processing

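Counts of members and of wider pathway genes called stayed within 1.5 times under every alternative run, except that 19 members rather than 29 were higher among those with under 20% of their CDS 28-base words shared, where fewer members were tested; that alternative was chosen after seeing the data. Of 264 alternatives for single members, 257 kept direction and side of the threshold. RPF and total RNA of a replicate come from the same lysate, and the ratio was formed within that pair. When the median of each replicate was removed as a replicate block, 32 members were called and STT3A passed (limma adjusted p = 0.049), as it did with a pseudocount of 0.1 (limma adjusted p = 0.047). Against the mean of all values, 0.17 above the median on the log2 scale, STT3A reversed to -0.024, SSR4 and SEC11A no longer passed (limma adjusted p = 0.52 and 0.26) and PDIA6 was called lower (limma adjusted p = 0.011). SSR4 also did not pass without replicate 2 (limma adjusted p = 0.066).

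Without the replicate block in the test of paired subunits, SEC11A against SEC11C passed at -0.14 (limma adjusted p = 0.045). SRPR against SRPRB reversed without replicate 3, with a range from -0.016 to 0.13 when each replicate was left out. The median CDS occupancy of the members was 0.0274 with medians over codons (0.00714 in all transcripts), 0.0755 without the first 5 and last 5 codons, 0.0727 without the highest codon and 0.0669 among members with little shared sequence. The ratio of the first to the last 75 codons was 0.938 with medians over codons, 1.23 without the first 5 and last 5 codons, 0.961 without the highest codon and 1.01 with windows of 50 codons. The cause of these changes was not tested. Single mRNAs have no replicate error in the occupancy table, and most of their reads are estimates.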
